A study of Homo sapiens with 6 samples.

Results

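The cadherin superfamily was examined in UMUC3 bladder carcinoma cells with and without knockdown of GANAB. Members were the genes of the deposited count table whose symbol is CDH, CDHR, PCDH, FAT, DCHS or CELSR with a number, the clustered protocadherins PCDHA, PCDHB and PCDHG included and PCDH11Y left out. The rule used symbols only, with no measured value, and found 82 of the 21503 genes in that table. Of these, 78 had enough counts to be tested, and PCDH18, PCDHGA11, PCDHGB4 and PCDHGB6 did not.

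Cadherins are membrane proteins whose extracellular repeats bind calcium and join neighbouring cells. Classical cadherins hold adherens junctions together through catenins that link them to actin, with CDH1 typical of epithelium and CDH2 of nerve, muscle and mesenchymal cells. Clustered protocadherins are transcribed from alternative promoters in tandem arrays, are best known for giving neurons distinct surface identities, and are often silenced by DNA methylation in carcinomas. FAT, DCHS and CELSR proteins are giant cadherins of growth control and planar cell polarity.

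Both groups were UMUC3, an established human bladder carcinoma line, placed in the bladders of C57 nude mice and recovered after 14 days. Bulk RNA-seq was made from 3 control and 3 GANAB knockdown libraries. GANAB encodes the catalytic subunit of glucosidase II, which trims glucose from N-glycans in the endoplasmic reticulum. All mice were kept under normal conditions, and the labels give neither their age, nor the agent that lowered GANAB, nor what the control cells carried. Nothing in the labels ties a library to its own mouse, so the p-values reflect the spread among these libraries, part of which may be technical.

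Libraries held 11737837 to 40039584 estimated counts, with the 3 knockdown libraries at 36619291 or more and control library 3 the shallowest. Values are in CPM, which sets counts on a common library total (TMM scaling), and each called change passed an adjusted p of 0.05 in the quasi-likelihood test of edgeR over 19430 genes. GANAB stood at 685, 825 and 661 CPM in the controls and at 231, 238 and 231 CPM in the knockdown libraries (log2 fold change -1.63, edgeR adjusted p = 0.00239). Markers of the labelled cells were present. VIM had 1147, 1618 and 2550 TPM (a level scaled for gene length) in controls and 4214 to 4277 TPM in knockdown. VIM itself was called higher (log2 fold change 1.08 in CPM, edgeR adjusted p = 0.0206). KRT8 and KRT18 were at 61.2 TPM or more in every library, and KRT7 at 11.3 TPM or more. KRT19 was at 0.916 to 7.90 TPM and EPCAM at 0 to 1.14 TPM. None of the keratins passed. Control library 1 had 17.5% of its counts in the mitochondrial rRNA gene MT-RNR2, while no single gene took more than 2.02% in the others. Control libraries were far more unlike each other than knockdown libraries: a chi-square per degree of freedom between pairs was 130 to 513 in controls and 6.06 to 7.72 in knockdown. The SD of log2(CPM + 0.5) had a median over the members of 0.599 in controls and 0.171 in knockdown, against 0.423 and 0.115 over all genes.

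With GANAB knocked down, 10 members rose and 3 fell. CDH23, PCDH7, DCHS1 and 7 clustered protocadherins (PCDHAC2, PCDHB5, PCDHB14, PCDHB15, PCDHB16, PCDHGA9 and PCDHGC3) were higher, and the neural type cadherin CDH2, the retinal cadherin CDH4 and FAT4 were lower. The 13 called members were 16.7% of the 78 tested, against 8.31% of all genes. The 10 higher members were 12.8%, against 4.59% of all genes, and the 3 lower members were 3.85%, against 3.72%. The median log2 fold change was 0.49 over the members and 0.03 over all genes, and 53 members (67.9%) had a positive value, against 52.1% of all genes. The groups did not overlap in 37.6% of all genes. In 29 members (37.2%) every knockdown library was above every control, against 21.9% of all genes, and in 8 (10.3%) every one was below, against 15.7%. These calls rested on all 3 knockdown libraries: without any single one of them, only CDH23 and PCDH7 still passed among the 13. Most calls over all genes were lost as well, with 0.311% to 0.575% of all genes passing then, against 8.31%.

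**Figure D1:**
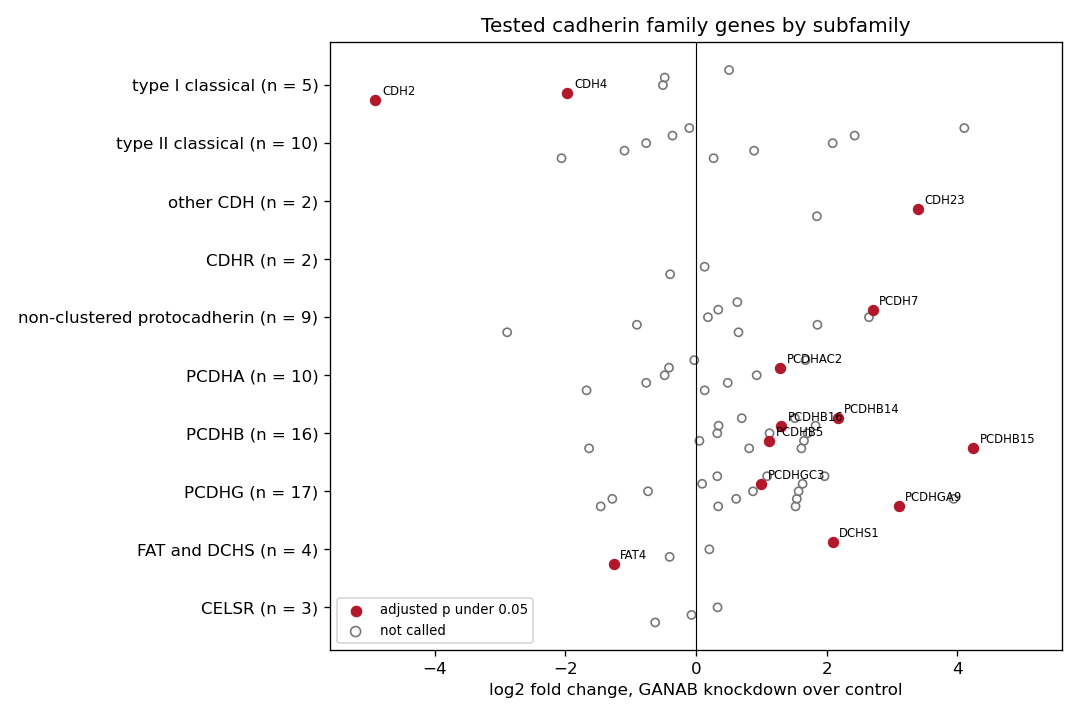
Log2 fold change of each of the 78 tested members, knockdown over control, with 1 line per subfamily and points set apart vertically only to separate them. Filled points passed an edgeR adjusted p of 0.05. Type I cadherins lie mostly below 0 (4 of 5), and PCDHB genes lie above 0 in 15 of 16.

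Among the 5 type I classical cadherins, the form that builds adherens junctions, CDH2 and CDH4 fell, against 3.72% of all genes, and none rose in edgeR (0 at an unadjusted p under 0.05, with DESeq2 and with limma-voom). CDH2 (N-cadherin, ENSG00000170558, GRCh38 chromosome 18, 27950966 to 28177446, minus strand) had 48.7, 2.79 and 81.9 CPM in control libraries 1, 2 and 3. It had 1.32, 1.83 and 1.27 CPM in the knockdown libraries. Control library 2 was thus close to the knockdown libraries and far from the other controls, although the groups did not overlap. The log2 fold change was -4.91 with SE 1.05 (edgeR adjusted p = 0.0327). Leaving out control library 2 gave -5.46 (edgeR adjusted p = 5.36e-05), while leaving out control library 1 or 3 ended the call (adjusted p = 0.0661 and 0.0614), as did leaving out each knockdown library (0.149 to 0.169).

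CDH4 (R-cadherin, ENSG00000179242, chromosome 20, 61252426 to 61940617, plus strand), a close relative of CDH2 that can bind it across cells, had 16.9, 24.1 and 16.1 CPM in the controls. It had 4.62, 5.25 and 4.71 CPM in knockdown, well below every control. Its log2 fold change was -1.97 with SE 0.231 (3.92-fold lower, edgeR adjusted p = 0.00585). Control library 2, low in CDH2, was the highest library for CDH4. The call was lost without knockdown library 1, 2 or 3 (adjusted p = 0.0586 to 0.0672) and was kept without each control.

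The other type I cadherins did not pass. CDH1 (E-cadherin, the main epithelial cadherin) was close to absent in both groups, at 0.552, 0 and 0 CPM in controls and 0.174, 0.382 and 0.330 CPM in knockdown. Its fold change is not interpretable at these levels, since 3 counts were worth 0.0707 to 0.247 CPM. CDH3 (P-cadherin of basal epithelium) had 3.02, 2.89 and 2.63 CPM in controls and 2.01, 2.16 and 1.84 CPM in knockdown. The groups did not overlap, but the change of -0.51 on the log2 scale did not pass (edgeR adjusted p = 0.398). CDH15, the muscle cadherin, stayed at or under 1.23 CPM. Summed over the 5 genes, type I cadherins came to 69.9, 30.0 and 102 CPM in controls and to 8.88, 9.96 and 8.62 CPM in knockdown.

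None of the 10 type II cadherins, a divergent class of classical cadherins, passed the edgeR test in either direction. At an unadjusted p under 0.05 there were 2 higher and 0 lower, with DESeq2 2 higher (adjusted) and with limma-voom 1. CDH11 (OB-cadherin of mesenchymal cells), the type II gene with the highest TPM in knockdown, had 14.0, 0.894 and 14.0 CPM in controls and 16.7, 18.5 and 18.2 CPM in knockdown. Control library 2 was again the outlying value, and the log2 fold change of 0.89 (edgeR adjusted p = 0.516) was 0.35 without it. CDH5 (VE-cadherin of endothelial junctions) had 0.405, 0 and 0 CPM in controls and 2.46, 3.13 and 2.92 CPM in knockdown. The groups did not overlap, and the edgeR adjusted p was 0.0566. Without control library 1 or 2 it became 0.0204 and 0.018. Leaving out any other library gave no CDH5 call (edgeR adjusted p up to 0.213). All 11 control counts of CDH5 lay in control library 1, so its fold change rests on few reads. CDH10, a neural cadherin, had 0.368, 0.105 and 1.32 CPM in controls and 2.36, 2.98 and 3.77 CPM in knockdown. Its log2 fold change was 2.43 (edgeR adjusted p = 0.104, and 0.0266 without control library 3). Leaving out any other library gave no CDH10 call (edgeR adjusted p up to 0.333). CDH24 had 18.7, 26.0 and 17.0 CPM against 18.3, 18.8 and 20.3 CPM, and its small difference changed sign on the TPM scale and without control library 2.

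The largest rises with substantial expression were those of CDH23 and PCDH7. CDH23 (cadherin 23, ENSG00000107736, chromosome 10, 71396934 to 71815947, plus strand) is known as the upper part of the tip link between stereocilia of hair cells. It had 5.26, 7.20 and 4.36 CPM in controls and 61.1, 53.2 and 63.0 CPM in knockdown. The lowest knockdown value was far above the highest control. This rise of 10.5-fold (log2 fold change 3.39, SE 0.220, edgeR adjusted p = 0.000981) passed under all 17 alternative settings. Ranked by TPM within each group, CDH23 was the member at place 20 in controls, at 2.93 ± 1.55 TPM (SD, n = 3), and at place 6 in knockdown, at 17.3 ± 1.36 TPM.

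Opposite-strand genes share the CDH23 locus, and no source used here gives the strand setting of the counting. In the GENCODE annotation, C10orf105 overlaps 18.86% of the exon bases of CDH23. C10orf105 itself was at 0.0736, 0 and 0 CPM in controls and at 0.496, 0.331 and 0.330 CPM in knockdown, far below CDH23. VSIR, an immune checkpoint ligand encoded within the CDH23 span on the other strand, shares no exon bases with CDH23 in that annotation. VSIR had 5.22, 15.3 and 3.87 CPM in controls and 24.7, 23.6 and 22.3 CPM in knockdown (log2 fold change 1.52, edgeR adjusted p = 0.0919).

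PCDH15, the partner of CDH23 in the lower part of the tip link, did not pass. It had 44.9, 3.05 and 57.1 CPM in controls and 46.3, 44.8 and 41.4 CPM in knockdown. Apart from the low control library 2, the controls enclosed or exceeded the knockdown values. Its log2 fold change of 0.34 (edgeR adjusted p = 0.834) turned to -0.20 without control library 2.

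PCDH7 (protocadherin 7, ENSG00000169851, chromosome 4, 30720415 to 31146805, plus strand) is a non-clustered protocadherin known for promoting growth in lung cancer. It had 14.8, 11.5 and 10.7 CPM in controls and 75.9, 84.8 and 81.0 CPM in knockdown. Both groups were tight and far apart. The rise was 6.50-fold (log2 fold change 2.70, SE 0.171, edgeR adjusted p = 0.000981), and leaving out each library kept it between 2.56 and 2.83. No GENCODE gene overlaps the exons of PCDH7.

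The other 8 tested non-clustered protocadherins did not pass, although 6 had a positive value. PCDH10, often silenced by methylation in carcinomas, had 24.3, 2.52 and 31.4 CPM in controls and 2.43, 2.24 and 3.13 CPM in knockdown. As with CDH2, control library 2 sat at the level of the knockdown libraries, here within their range. The log2 fold change of -2.89 (edgeR adjusted p = 0.0619) was -3.41 without control library 2 (adjusted p = 9.91e-05). Leaving out any other library gave no PCDH10 call (edgeR adjusted p up to 0.242). PCDH9, a neural protocadherin, had 5.44, 5.26 and 8.07 CPM in controls and 2.56, 4.05 and 3.37 CPM in knockdown, without overlap (edgeR adjusted p = 0.127). PCDH12, known from endothelium and trophoblast, had 0.368, 0.105 and 0 CPM in controls and 1.24, 1.27 and 0.872 CPM in knockdown (edgeR adjusted p = 0.122). PCDH9 and PCDH12 were singled out with their values known. CDH13, a cadherin without a transmembrane segment, reached 1.27 CPM at most.

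**Figure D2:**
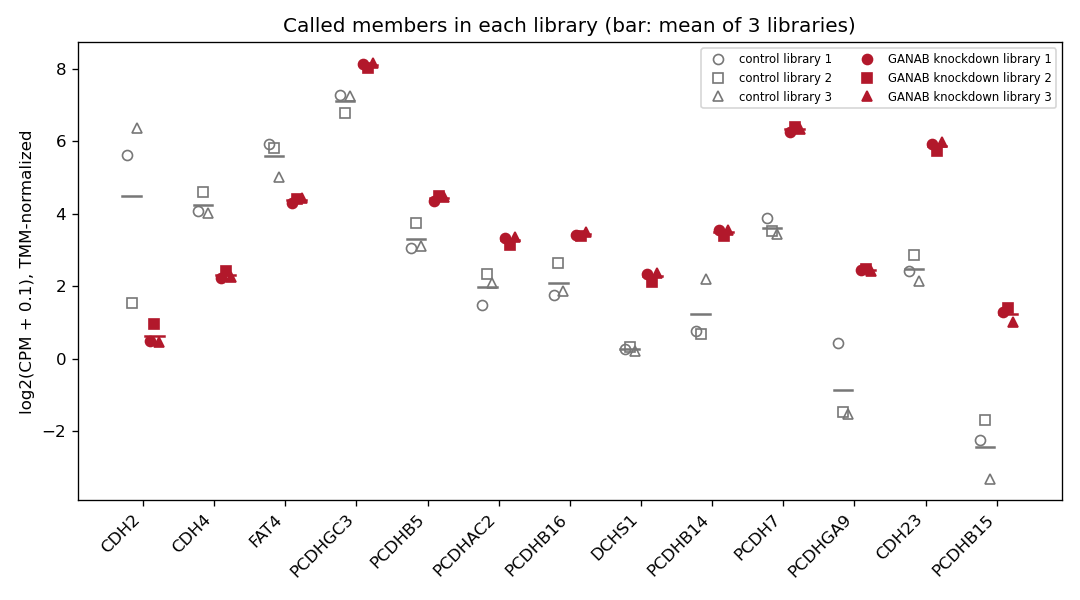
Log2(CPM + 0.1) of the 13 called members in each library, with a bar at the mean of 3 libraries and the members in order of log2 fold change. Grey open symbols are controls and red filled symbols are GANAB knockdown; the open square of CDH2 is control library 2, at 2.79 CPM against 48.7 and 81.9 CPM in the other controls.

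Low values in control library 2 were seen in several members at once. Of the 41 members with at least 50 counts in a control, 6 (CDH2, CDH11, CDH12, PCDH10, PCDH15 and PCDH19) were at least 4-fold lower in control library 2 than in both other controls, or 14.6%. The same held for 364 of 13966 genes, or 2.61%. No member was at least 4-fold higher there, while 58 of all genes were. In these 6 members the knockdown values followed no common pattern: CDH2 and PCDH10 were low like control library 2, and CDH11 and PCDH15 were at the level of control libraries 1 and 3. Leukocyte and endothelial markers did not move together in this library. It had the highest TPM of CD68 (207, against 42.5 to 59.0 in the other libraries) and of TIE1 (45.5, against 7.06 to 10.1). CSF1R, ITGAM, PECAM1 and KDR were also at their highest control level there, each at or under 0.801 TPM. AIF1 was at 0 there and in no other library, and TEK was at its lowest (0.0153 TPM). LYZ, at 2.32 TPM, was within the range of the others. PTPRC, TYROBP, CD3E, VWF, EMCN and CLDN5 were at 0 there, but each was at 0 in another library too. Smooth muscle markers ACTG2, DES, CNN1, ACTA2 and TAGLN were lower there than in every other library (54.9, 32.5, 8.36, 33.6 and 77.9 TPM). SYNPO2 was too, whereas MYH11 was not and LMOD1 was at 0 in control library 3 as well. Fibroblast markers COL1A2, COL3A1, PDGFRB and POSTN were also lowest there (2.64, 0.346, 1.08 and 0.084 TPM). COL1A1 was not, and PDGFRA was at its highest. Any link of these markers to the low members was not tested. CDH12 and PCDH19 were included with their values known.

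**Figure D3:**
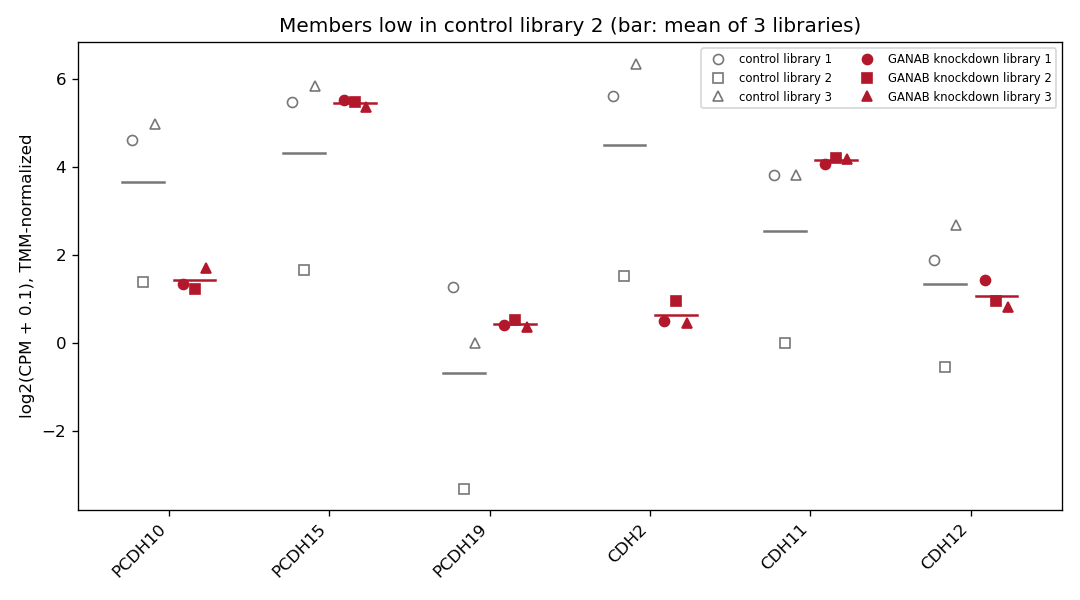
Log2(CPM + 0.1) of the 6 members at least 4-fold lower in control library 2 (open squares) than in control libraries 1 and 3, with a bar at each mean of 3 libraries. Knockdown libraries (red) lie with the low control for CDH2 and PCDH10 and with the high controls for CDH11 and PCDH15.

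The 46 clustered protocadherins in the table, of which 43 were tested, lie in tandem on chromosome 5 (140794852 to 141512981, 718.1 kb). Of these, 7 rose and none fell in the edgeR test (1 had a lower value at an unadjusted p under 0.05, 1 with DESeq2 and 0 with limma-voom), 34 had a positive value, and the median log2 fold change was 0.93. The PCDHB genes, each a single exon with its own promoter, moved in 1 direction most often: 4 of 16 rose, against 4.59% of all genes, and 15 of 16 had a positive value, with a median of 1.21. In 11 of the 16 (68.8%, against 21.9% of all genes) every knockdown library was above every control. PCDHB1, at the head of the array, was the only one with a negative value. Between 14 and 15 of the 16 had a positive value under every setting that tested all 16.

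Most clustered protocadherin promoters are known to hold a short conserved element bound by CTCF, so the promoters of the PCDHB genes were compared. Promoter sequences (RefSeq, GRCh38.p14, 250 bases before to 50 after each start) were found for 14 of the 16 PCDHB genes. On both strands, the run GGTGGCGCT was found in 13 of the 14, in none of the 8 PCDHA, 18 PCDHG and 22 other member promoters, and in 169 of 27305 gene promoters (0.619%). It began 2 to 84 bases before the start site. Runs were chosen by comparing these same promoters, so their counts are a description, and any link to the changes was not tested. The windows below show this run in capitals with 25 bases on each side for the 4 PCDHB genes that rose, for PCDHB2 and PCDHB9, which did not pass, and for PCDHB1, which has the change C6T (counted from 1 at the 5′ end of the run). They lie on the plus strand, in order chr5:141051323-141051381, chr5:141094530-141094588, chr5:141135165-141135223, chr5:141182296-141182354, chr5:141187060-141187118, chr5:141223249-141223307 and chr5:141245300-141245358.
PCDHB1: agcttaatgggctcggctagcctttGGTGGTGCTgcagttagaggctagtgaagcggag
PCDHB2: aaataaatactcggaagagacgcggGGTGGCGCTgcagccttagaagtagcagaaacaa
PCDHB5: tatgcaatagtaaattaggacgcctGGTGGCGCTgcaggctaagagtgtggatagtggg
PCDHB16: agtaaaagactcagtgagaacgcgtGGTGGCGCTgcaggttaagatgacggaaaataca
PCDHB9: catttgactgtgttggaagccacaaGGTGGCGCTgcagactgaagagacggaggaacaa
PCDHB14: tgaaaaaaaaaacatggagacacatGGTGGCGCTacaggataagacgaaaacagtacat
PCDHB15: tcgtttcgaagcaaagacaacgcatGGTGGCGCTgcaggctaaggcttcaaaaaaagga

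Among the 4 PCDHB genes that rose, PCDHB5 had the highest level. PCDHB5 (ENSG00000113209) had 8.17, 13.2 and 8.56 CPM in controls and 20.5, 22.2 and 22.2 CPM in knockdown. Every knockdown library was above every control, and control library 2 was the highest control. PCDHB5 rose by a log2 fold change of 1.11 (SE 0.230, edgeR adjusted p = 0.0294). PCDHB16 (ENSG00000272674) followed the same order, with 3.31, 6.20 and 3.54 CPM in controls and 10.5, 10.4 and 11.3 CPM in knockdown. For PCDHB16 the log2 fold change was 1.30 (SE 0.302, edgeR adjusted p = 0.0422).

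PCDHB14 (ENSG00000120327) had 1.62, 1.52 and 4.53 CPM in controls and 11.6, 10.4 and 11.7 CPM in knockdown, with control library 3 the highest control. This gave a log2 fold change of 2.17 (SE 0.449, edgeR adjusted p = 0.0295). PCDHB15 (ENSG00000113248) was close to absent in controls, with 3, 4 and 0 counts (0.110, 0.210 and 0 CPM), and had 2.33, 2.55 and 1.91 CPM in knockdown. Its log2 fold change of 4.24 with SE 0.776 (edgeR adjusted p = 0.0216) was the largest rise among the called members and rests on these few control counts. All 4 calls were lost without control library 1 (adjusted p = 0.0505 to 0.0875) and without each knockdown library (0.122 to 0.203); those of PCDHB5 and PCDHB16 were lost without control library 3 as well (0.0662 and 0.0791).

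Of the PCDHB genes that did not pass, 11 had a positive value. PCDHB2 had 5.74, 9.94 and 7.41 CPM in controls and 13.7, 13.5 and 13.2 CPM in knockdown (log2 fold change 0.81, edgeR adjusted p = 0.0846). PCDHB9 overlapped between the groups, with 6.73, 10.5 and 4.12 CPM against 9.38, 9.27 and 8.20 CPM. PCDHB1 had 1.62, 2.00 and 2.47 CPM in controls and 0.447, 0.713 and 0.777 CPM in knockdown. Its groups did not overlap, and its log2 fold change of -1.64 did not pass (edgeR adjusted p = 0.0817). PCDHB1, PCDHB2 and PCDHB9 were singled out with their values known. Summed over the 16 genes, PCDHB came to 53.3, 76.3 and 43.1 CPM in controls and to 110, 105 and 112 CPM in knockdown.

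The PCDHG array was dominated by PCDHGC3, a C-type isoform expressed widely outside the nervous system. PCDHGC3 (ENSG00000240184, chromosome 5, 141475947 to 141512979, plus strand) had 155, 110 and 151 CPM in controls and 281, 261 and 285 CPM in knockdown. The groups were well apart, with control library 2 the lowest. PCDHGC3 was 1.99-fold higher in knockdown (log2 fold change 0.99, SE 0.165, edgeR adjusted p = 0.0164). PCDHGC3 made up 86.6% to 92.8% of the CPM of all 20 PCDHG genes in each library. The other PCDHG genes together had 17.4, 8.57 and 23.4 CPM in controls and 32.2, 35.7 and 30.4 CPM in knockdown.

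PCDHGA9 (ENSG00000261934) was the other PCDHG gene that rose, with 1.25, 0.263 and 0.247 CPM in controls and 5.38, 5.45 and 5.25 CPM in knockdown. PCDHGA9 was 8.56-fold higher (log2 fold change 3.10, SE 0.639, edgeR adjusted p = 0.0293). The calls of both PCDHG genes were kept without each control and lost without each knockdown library (adjusted p = 0.0985 to 0.147). Of the 17 tested PCDHG genes, 2 rose (11.8%, against 4.59% of all genes). A positive value was seen in 14 (82.4%, against 52.1%), and the median log2 fold change was 0.99, against 0.03. PCDHGA11 was not tested: it had no count in any control and 9, 8 and 27 counts in the knockdown libraries. The other untested members, PCDH18, PCDHGB4 and PCDHGB6, stayed at or under 0.688 CPM.

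Among the 15 PCDHG genes that did not pass, PCDHGA10 had the highest level in knockdown, with 3.79, 1.21 and 4.36 CPM in controls and 8.13 CPM or more in each knockdown library (log2 fold change 1.57, edgeR adjusted p = 0.0786). PCDHGA4 had 0.184, 0 and 0 CPM in controls and 1.71, 1.22 and 0.730 CPM in knockdown (edgeR adjusted p = 0.0687). Both had every knockdown library above every control. The 3 genes with a negative value, PCDHGA8, PCDHGB3 and PCDHGC5, overlapped between the groups or stayed at or under 4.20 CPM. These PCDHG genes were chosen with their values known.

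The PCDHA genes showed no common direction, with 5 of 10 above 0 and a median log2 fold change of 0.05. PCDHAC2 (ENSG00000243232), a C-type isoform at the end of the array, was the only one that rose. It had 2.69, 4.94 and 4.20 CPM in controls and 9.95, 8.66 and 10.2 CPM in knockdown. Its log2 fold change was 1.29 with SE 0.295 (edgeR adjusted p = 0.0399); the call was lost without control library 1 or 3 (adjusted p = 0.0585 and 0.0637) and without each knockdown library (0.162 to 0.204). PCDHA2, the first gene of the array in the table, had 1.95, 0.999 and 0.905 CPM in controls and 3.77, 4.13 and 4.62 CPM in knockdown, again without overlap (log2 fold change 1.67, edgeR adjusted p = 0.0517).

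Other runs marked the other arrays. The run GATGTCGCT was found in 5 of 8 PCDHA promoters and in 35 of 27305 gene promoters (0.128%), and GCGCCGCTG in 9 of 18 PCDHG promoters and in 433 gene promoters (1.59%); neither was found in a PCDHB promoter. PCDHAC2 and PCDHGC3 held neither of them. The windows of PCDHA2 (chr5:140794767-140794825) and of PCDHGA9 (chr5:141402701-141402759) show the run of each array in capitals, for comparison with that of the PCDHB genes.
PCDHA2: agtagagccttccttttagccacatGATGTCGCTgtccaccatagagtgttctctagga
PCDHGA9: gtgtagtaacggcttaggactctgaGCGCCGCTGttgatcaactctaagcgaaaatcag

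Values of single clustered genes are uncertain. PCDHA genes share their constant exons with one another, as do PCDHG genes, and PCDHB genes are close copies, so shared reads were split between them by estimate. Annotated genes outside the family, on either strand, overlap 24.94% of the exon bases of PCDHB16, 14.7% of PCDHB5 and 10.23% of PCDHB15. They overlap 4.05% of PCDHAC2 and 3.5% of PCDHB14, and none of PCDHGA9 or PCDHGC3.

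Genes beside the arrays were compared with the arrays themselves. Within 500 kb on either side, 25 tested genes outside the family had a median log2 fold change of -0.01, with 3 higher and 1 lower, against 4.59% and 3.72% of all genes, and 11 had a positive value. The amyloid precursor binding adaptor APBB3 had 21.6, 21.0 and 20.5 CPM in controls and 91.1, 92.2 and 92.8 CPM in knockdown (log2 fold change 2.13, edgeR adjusted p = 0.000981). The growth factor HBEGF and FCHSD1 were the other genes that rose, and the actin nucleator DIAPH1, next to the end of the PCDHG array, fell by 0.75 on the log2 scale. Inside the span of the arrays, all 5 tested genes outside the family had a positive value, with a median of 1.33. Of these, 4 are noncoding genes at or under 0.989 CPM in every library that did not pass (edgeR adjusted p = 0.282 to 0.745). TAF7, a subunit of the basal transcription factor TFIID and the only coding gene among the 5, rose with a log2 fold change of 0.68 (edgeR adjusted p = 0.0294). Of the noncoding genes, AC005609.1, AC244517.5 and AC244517.6 overlap members, and AC244517.6 shares exon bases with PCDHB16. Whether reads of members entered their counts was not tested.

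**Figure D4:**
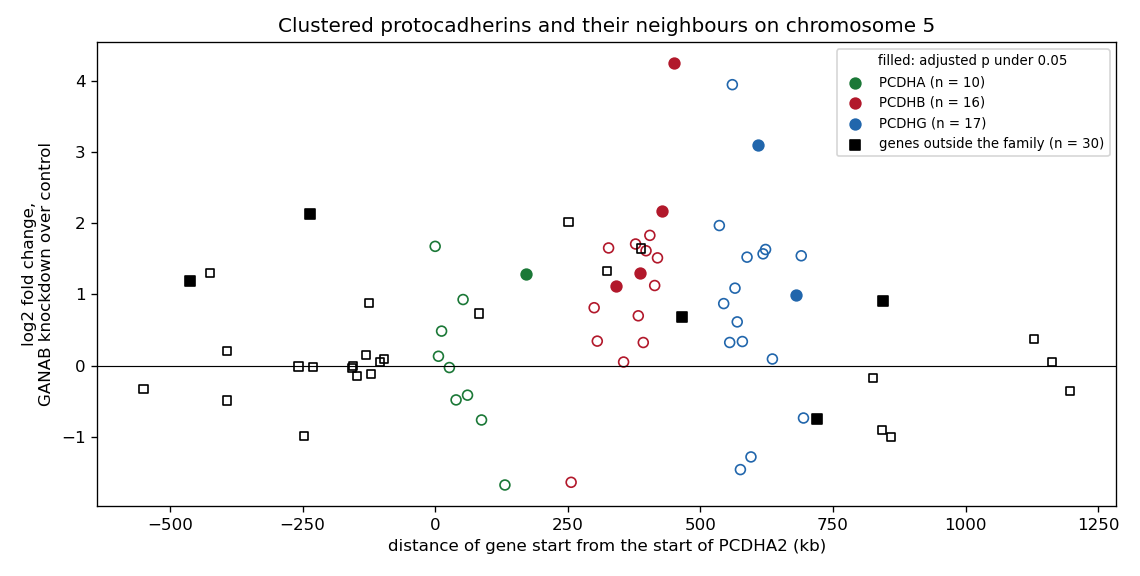
Log2 fold change of the 43 tested clustered protocadherins (circles) and of 30 genes outside the family (squares) by the distance of their annotated start from the start of PCDHA2, in kb. Filled symbols passed an edgeR adjusted p of 0.05. PCDHB genes (red) lie above 0 except PCDHB1, while flanking genes lie on both sides of 0 with a median of -0.01 and the 5 genes inside the span above it.

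Among the giant cadherins, DCHS1 rose and FAT4 fell. These proteins are known as a ligand and receptor pair, in which DCHS1 on one cell binds FAT4 on the next. DCHS1 (ENSG00000166341, chromosome 11, 6621323 to 6655854, minus strand) had 1.10, 1.16 and 1.07 CPM in controls and 4.94, 4.25 and 5.04 CPM in knockdown. The 3 controls were nearly alike and far below the knockdown libraries. DCHS1 was 4.26-fold higher (log2 fold change 2.09, SE 0.326, edgeR adjusted p = 0.0141). In the GENCODE annotation, the opposite-strand genes AC091564.4 and AC091564.5 overlap 9.36% of the exon bases of DCHS1.

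FAT4 (ENSG00000196159, chromosome 4, 125316399 to 125492932, plus strand) had 60.6, 56.6 and 32.2 CPM in controls and 19.7, 21.0 and 21.7 CPM in knockdown. Control library 3 was the nearest to the knockdown libraries, and the groups did not overlap. The log2 fold change was -1.26 with SE 0.242 (2.40-fold lower, edgeR adjusted p = 0.0246). Without control library 1 the FAT4 call was lost (adjusted p = 0.0592), and without each knockdown library both calls were (0.099 to 0.149).

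FAT1, the most abundant giant cadherin, had 211, 86.7 and 162 CPM in controls and 171, 183 and 174 CPM in knockdown. The knockdown values fell within the range of the controls, and the sign of the small difference changed without control library 2. CELSR1, a planar polarity receptor of epithelia, had 78.5, 37.1 and 70.9 CPM in controls and 78.0, 80.3 and 75.7 CPM in knockdown, with no call (log2 fold change 0.33, edgeR adjusted p = 0.488). CELSR3 had 37.4, 10.5 and 33.5 CPM in controls and 16.7, 18.3 and 17.7 CPM in knockdown. Its log2 fold change was -0.63 (edgeR adjusted p = 0.396), and -1.01 without control library 2 (0.000808). Leaving out any other library gave no CELSR3 call (edgeR adjusted p up to 0.675). The cadherin related proteins CDHR3 and CDHR4 had 3.57 to 6.67 CPM in controls and 3.00 to 5.32 CPM in knockdown, and neither passed.

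Compared per length, PCDHGC3 was the most abundant member in both groups, at 43.2 ± 10.3 TPM (SD, n = 3) in controls and 104 ± 5.52 TPM in knockdown, followed by FAT1 at 29.9 ± 8.34 and 50.4 ± 4.05 TPM. In controls CDH2 came next at 12.9 ± 13.4 TPM, with an SD as large as its mean, then PCDH15 at 9.73 ± 8.82 TPM, so that these neighbours did not differ beyond their spread. In knockdown PCDH7 came next at 23.9 ± 1.33 TPM, then CDH11 at 18.5 ± 2.90, PCDH15 at 18.2 ± 2.64 and CDH23 at 17.3 ± 1.36 TPM, and the last 3 did not differ beyond their spread. CDH2 stood at 0.506 ± 0.106 TPM there. On the TPM scale the median log2 fold change of all genes was itself 0.20 to 0.28, so a difference in TPM between the groups includes this shift.

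**Figure D5:**
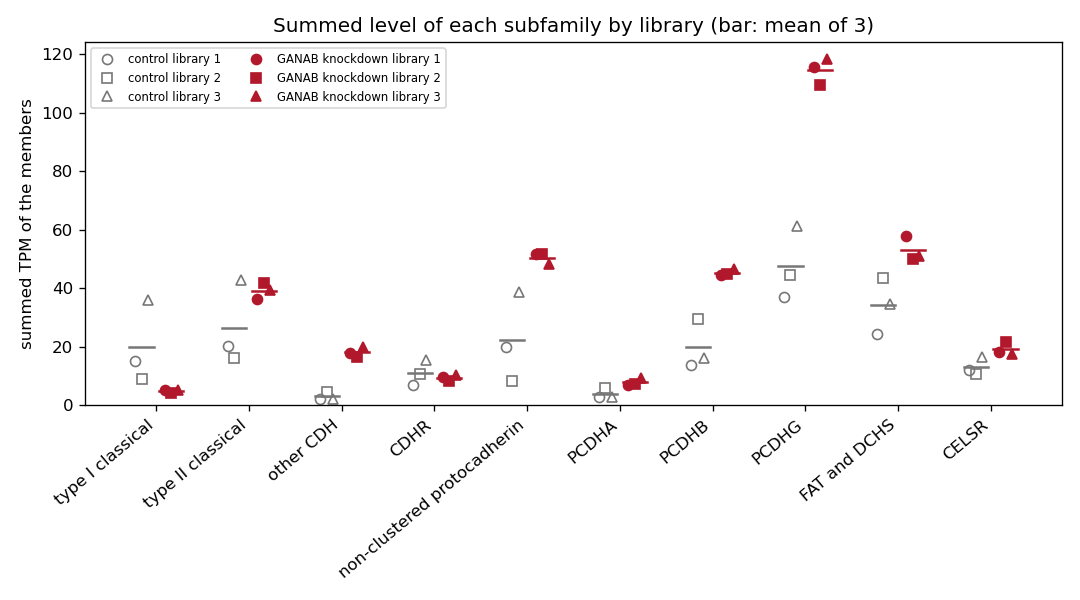
Summed TPM of the members of each subfamily in each library, with a bar at the mean of 3 libraries. Within each group PCDHG is the most abundant subfamily, at 37.0 to 61.2 TPM in controls and 109 to 118 TPM in knockdown. The median TPM change over all genes is itself above 0, so the order of the subfamilies within a group is what the plot shows.

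Genes that act with cadherins were read from 7 lists, and 8 of their 73 tested genes passed, against 8.31% of all genes (2 higher and 6 lower, against 4.59% and 3.72%). Of 12 catenins and junction linkers, which couple cadherins to the cytoskeleton, the catenin relative PKP4 fell, from 81.2, 67.1 and 97.7 CPM to 47.3, 48.1 and 47.5 CPM (log2 fold change -0.78, edgeR adjusted p = 0.0295), and none rose. Of 8 desmosomal genes, the desmosomal cadherin DSG2 fell, from 30.7, 25.8 and 31.8 CPM to 14.2, 13.7 and 15.4 CPM (log2 fold change -1.03, edgeR adjusted p = 0.0141). Each of these genes had every knockdown library below every control.

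The 4 TMTC enzymes add O-linked mannose to cadherin repeats in the endoplasmic reticulum. TMTC1 fell from 5.96, 10.6 and 1.89 CPM to 0.794, 0.993 and 0.848 CPM (log2 fold change -2.81, edgeR adjusted p = 0.0342). TMTC2 had 3.05, 1.31 and 2.55 CPM against 5.73, 6.54 and 6.36 CPM, the opposite order, and did not pass (edgeR adjusted p = 0.0576). Of 13 proteases that process or shed cadherins, the gamma-secretase subunit APH1B rose (log2 fold change 0.68, edgeR adjusted p = 0.0269). None of 12 planar polarity partners passed in edgeR (1 higher and 3 lower at an unadjusted p under 0.05, 1 and 2 with DESeq2, 3 and 0 with limma-voom).

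Of 10 repressors of CDH1, SNAI1, a zinc finger factor that represses CDH1, rose from 10.6, 11.5 and 10.2 CPM to 38.0, 33.2 and 33.0 CPM (log2 fold change 1.68, edgeR adjusted p = 0.00312). SNAI2, its close relative, had 1.77, 2.10 and 1.23 CPM against 0.323, 0.866 and 0.212 CPM and did not pass (edgeR adjusted p = 0.131). Of 14 regulators of clustered protocadherin promoters, 3 fell, against 3.72% of all genes, and none rose in edgeR (0 at an unadjusted p under 0.05, with DESeq2 and with limma-voom). DNMT1, the maintenance DNA methyltransferase, fell from 152, 184 and 134 CPM to 64.0, 67.5 and 67.4 CPM (log2 fold change -1.24, edgeR adjusted p = 0.00709). The cohesin subunits SMC1A and RAD21 both had a log2 fold change of -0.67 (edgeR adjusted p = 0.0284 and 0.0407). Over these 7 lists the number of calls was 1 without any single knockdown library and 31 without control library 2. Of all genes, 0.311% to 0.575% passed without a knockdown library and 27.7% without control library 2.

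Markers of cells that the bladder holds were read beside these results. Summed TPM of 8 smooth muscle markers was 208 to 394 in controls and 875 to 940 in knockdown, and 4 of them rose, against 4.59% of all genes, MYH11 most (log2 fold change 3.98 in CPM, edgeR adjusted p = 0.013). The sums in TPM include the shift of all genes on that scale, while the calls come from the counts. Fibroblast markers summed to 9.02 to 45.2 TPM and 59.6 to 75.4 TPM, with 1 of 6 tested higher and the defining LUM at 0 in every library. Endothelial markers summed to 8.76 to 46.8 TPM and 8.79 to 12.2 TPM, nearly all of it TIE1. PECAM1 was under 0.2 TPM in every library. None of the 6 tested was called by edgeR in either direction, beside the values of CDH5 given above. At an unadjusted p under 0.05, 1 was lower and 0 were higher, as with DESeq2, and limma-voom called 0 either way. Urothelial markers summed to at most 15.0 TPM in controls and to 20.4 to 28.0 TPM in knockdown, with 1 of 6 tested higher (UPK1A) and UPK3A and KRT20 at 0. Leukocyte markers summed to 56.0 to 210 TPM and 47.5 to 50.9 TPM, and nerve and glial markers to 67.6 to 122 TPM and 61.0 to 68.2 TPM. In the last list 1 of 3 tested passed: TUBB3, a neuronal tubulin, fell by 0.98 on the log2 scale (edgeR adjusted p = 0.0127), in the same direction as CDH2. The part of these markers in the cadherin values was not tested. In bulk RNA, fewer cells of a type and less RNA per cell cannot be told apart, and mouse reads similar to human transcripts may be among the counts.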

How the data were processed

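Libraries were made from total RNA, per the labels' protocols. The submitters' processing notes name fastp, Salmon, DESeq2 and GRCh38; their roles, the annotation, the strand setting and whether mouse reads were separated are not stated there. The authors deposited estimated counts per Ensembl gene as whole numbers, not normalized, and a separate table of TPM. Columns headed as knockout were matched to the knockdown samples by number; 0 columns of other samples were present.

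Estimated counts of all 6 libraries were tested with edgeR 4.0.16 (R 4.3.3): filterByExpr, TMM, quasi-likelihood test, no covariate, 2-sided, Benjamini-Hochberg at 0.05 over all genes. It was tested on simulated data that gave each gene the same dispersion in both groups. The real groups differ in spread, so that run cannot tell how often calls are wrong here. Depth was 11737837 to 40039584 counts, so 3 counts were worth 0.0707 to 0.247 CPM. CPM used TMM library sizes. Positions and overlaps came from GENCODE release 29 and promoters from RefSeq.

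Members, lists and tests were chosen with earlier results of these data known. Named were GANAB, members called with at least 1 CPM in the higher group, the 8 of highest mean TPM, the 2 of smallest p per subfamily, CDH1, CDH2, CDH3 and CDH5, the 3 genes of smallest p per partner list and the most abundant marker per marker list; not all are described. Alternatives were other scalings and filters, DESeq2 1.42.0, limma 3.58.1 (voom, and trend on log2 TPM with 1 or 0.1 added), a replicate block and leaving out each library.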

Additional observations from a re-analysis of the deposited data

How the results depend on the processing

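In the edgeR test, 1614 genes, 10 higher members, 3 lower members and 8 partner genes passed. These counts, in that order, were 3676, 21, 6 and 16 with the DESeq2 Wald test, and 962, 4, 0 and 1 with limma-trend on log2(TPM + 1) above a mean TPM of 1. With 0.1 added they were 566, 4, 0 and 1, and with no TPM filter lower members were 0 and partner genes 4. With limma-voom and sample weights, all genes were 3716, lower members 5 and partner genes 21; with 1 weight per group, higher members were 6. On the TPM scale 89% to 93.4% of called genes were higher, against 55.3% in that test, and voom with a weight per group and the replicate block moved the median of all genes to 0.11. Leaving out each library gave 62 to 5604 genes, 2 to 18 higher members, 0 to 7 lower members and 1 to 31 partner genes; the fewest were without a knockdown library and the most without control library 2. With the replicate number as a block, 566 genes, 5 higher members, 1 lower member and 2 partner genes passed. Deviations of same-numbered libraries correlated at 0.00032 to 0.0195, and those of other pairs at -0.0126 to 0.0107. These values gave no sign of pairing by number, but a pairing with little effect on the counts would not show in them. The cause of the shifts between settings was not tested. The log2 fold change reversed for 5 members that had not passed. FAT1 was -0.026 and CDH24 0.039 with voom sample weights, and CDH24 0.15, 0.18 and 0.15 on the TPM scale. Leaving out each library gave FAT1 -0.079 to 0.49, CDH24 -0.28 to 0.10, PCDH15 -0.20 to 0.83, CDHR3 -0.047 to 0.43 and CDH1 -0.065 to 6.19; CDH1 was also -0.015 without control library 3. GANAB passed in 16 of 17 alternatives. With 3 libraries a group and control libraries this unlike each other, precision was low for many members under 1 CPM (PCDHA7, SE 1.45). It was also low for abundant members with a low control library 2 (CDH2, SE 1.05, and PCDH15, SE 0.783).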

Other observations

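The TPM table lists 21 further genes whose symbols fit the naming rule but that are not in the count table. They were at 0 in all 6 libraries for 5 of them, and the highest single value was 1.13 TPM, for CDHR2, a brush border cadherin of intestinal and renal epithelium. The 82 members lie on 14 chromosomes, and 61 of them overlap a gene on the opposite strand in GENCODE.

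HBEGF, an epidermal growth factor receptor ligand, had 27.7, 17.8 and 42.9 CPM in controls and 64.3, 67.1 and 70.2 CPM in knockdown, with an edgeR adjusted p of 0.0497. FCHSD1, a membrane-bending adaptor, had 41.3, 42.0 and 47.3 CPM in controls and 80.8, 80.2 and 83.6 CPM in knockdown, with an edgeR adjusted p of 0.00976.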
